A study of Mus musculus with 6 samples.

Results

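The lipoxygenase family of mouse skin was examined as the rows of the deposited table named Alox12b, Aloxe3, Alox12e, Alox8, Alox12, Alox15, Alox5 and Alox5ap. All 8 names were found, each once, among 21959 genes. Bulk RNA-seq had been performed on dorsal skin of male C57BL/6 mice shaved at 7 weeks of age in telogen, the resting phase of the hair cycle. The 3 mice of the control group received vehicle (dipropylene glycol in water) and the 3 mice of the treated group received 3% rebamipide, a gastric mucosal protectant, on the shaved skin daily for 7 days. Libraries were made from poly-A RNA of the whole tissue, so epidermis, hair follicles, dermis, fat and leukocytes contributed to each value.

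Lipoxygenases are iron enzymes that insert molecular oxygen into polyunsaturated fatty acids. In the epidermis, Alox12b and Aloxe3 act one after the other on linoleate bound in acylceramides, a step needed to attach the lipid envelope of the cornified cell and so to hold water in the body. In leukocytes, Alox5 oxidises arachidonic acid to leukotriene A4 with the help of Alox5ap, a membrane protein known as FLAP that presents the substrate and is no lipoxygenase itself. Alox15 is the enzyme of resident macrophages and eosinophils, Alox12 is the platelet-type enzyme and Alox12e is an epidermis-type enzyme of the mouse. Alox8 is the mouse counterpart of human ALOX15B and is known from phorbol ester-treated mouse skin. Alox12b, Aloxe3, Alox12e and Alox8 are grouped here as the epidermal members and Alox5, Alox5ap and Alox15 as the leukocyte members. The library values of Alox8 did not go with those of keratinocyte genes, so summaries of the epidermal members are given with and without it. In the annotation of the deposited table, the 8 genes share the term lipoxygenase pathway, the 7 enzymes share hepoxilin biosynthetic process, and the term establishment of skin barrier is given to Alox12b, Aloxe3 and Alox12.

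The vehicle libraries are called V1 to V3 and the rebamipide libraries R1 to R3. They held 38676018 to 39915276 and 32709801 to 34706852 counted reads. R3 stood apart in its epidermal content: it held 0 reads of the basal keratin gene Krt14, 4 of Krt5, 2 of Krt1 and 51 of Krt10, where the other libraries held 6102 to 64371, 5368 to 77535, 6748 to 65310 and 9078 to 110859. Krt15, Dsg1a, Dsc1, Ivl and Flg2 were at 0 in R3 as well, so the tissue label was not borne out for its epidermis. Other tissues differed as well: Ucp1, the brown fat uncoupling protein, had 0 reads in V1 to V3 and 81048 to 220449 in R1 to R3, and the skeletal muscle actin Acta1 had 2121 reads in R3 and 57583 to 355813 elsewhere. Of 8 brown adipocyte markers, Ucp1 among them, edgeR called 4 higher and 0 lower (14.1% and 6.51% of all genes). Elovl3 of that list was lower in every rebamipide library (log2 fold change -1.45), and Zic1 (0.09) and Lhx8 (1.06) overlapped between the groups. The part of these tissues in the values of the members was not tested. Values are therefore given by library, and each fold change of a member is also given without R3. Levels are read counts scaled to library size by the trimmed mean of M-values (TMM), called CPM, and levels of different genes are compared as FPKM, which also divides by gene length. The median log2 fold change of the 14875 genes tested was -0.17 on the TMM scale and -0.78 when libraries were scaled by their totals. Genes of the mitochondrial genome took 2.59% to 5.36% of the vehicle reads and 13.3% to 22% of the rebamipide reads.

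None of the 8 members passed an adjusted p-value of 0.05, and the fitted level of all 8 was lower after rebamipide. edgeR's quasi-likelihood test called 0 lower and 0 higher, where it called 6.51% of all genes lower and 14.1% higher. At an unadjusted p-value under 0.05, 2 members were lower (Alox8 and Alox12) and 0 higher, against 18.8% and 20.9% of all genes. DESeq2 called 1 lower (Alox12, adjusted p = 0.0258, with 0.0133 to 0.277 over its 21 alternatives) and 0 higher, where it called 17% of all genes lower and 18.3% higher, and limma-voom called 0. By the study's rule of an unadjusted p-value under 0.05 and a change beyond 1 on the log2 scale, 2 members were lower with edgeR (14.5% of all genes) and 3 with DESeq2 (18.2% of all genes), and 0 were higher. The median log2 fold change was -1.75 over the 8 members, -2.30 over the 4 epidermal members (-2.21 without Alox8) and -1.07 over the 3 leukocyte members, and 56.9% of all genes had a value below 0. In 2 members, Aloxe3 and Alox12, every rebamipide library lay below every vehicle library, as in 24% of all genes. In bulk tissue, fewer cells of a type and less RNA per cell cannot be told apart.

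**Figure D1:**
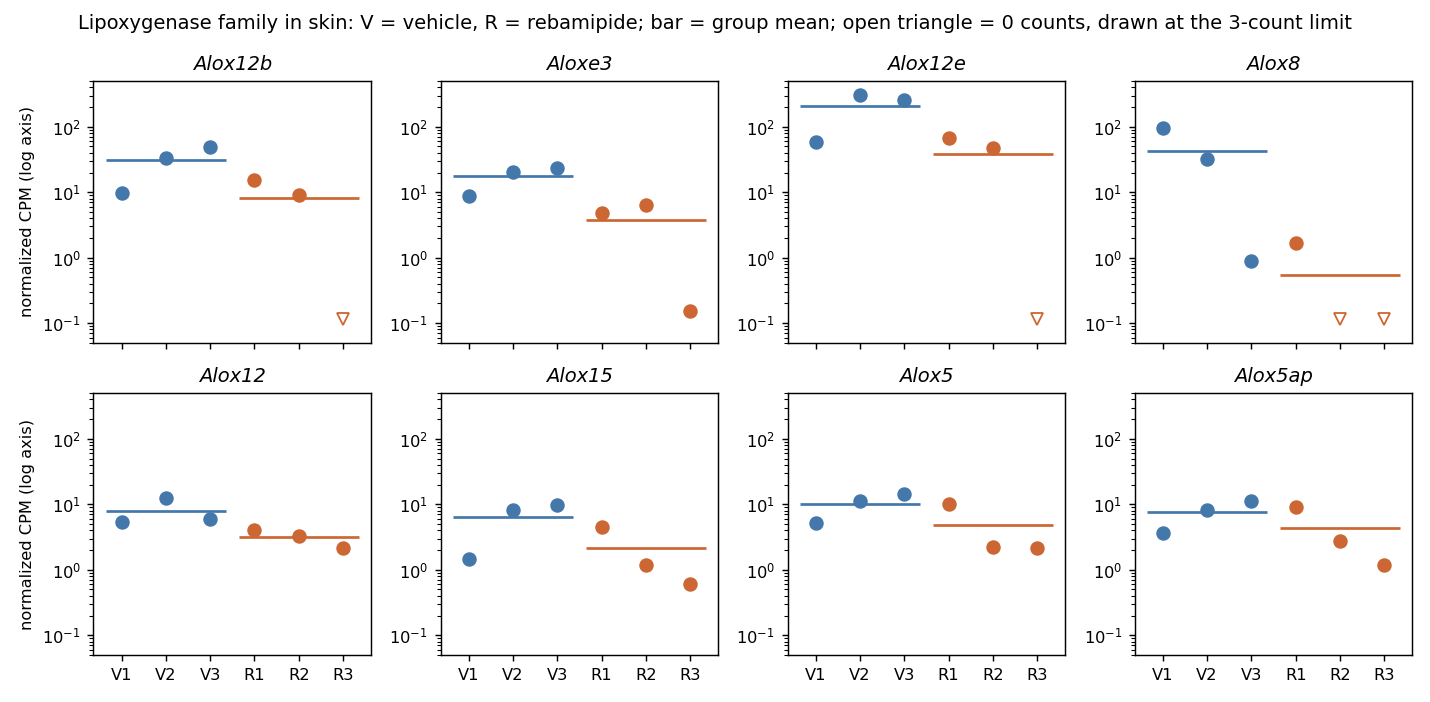
Normalized CPM of the 8 members in each library on a log axis, with vehicle libraries V1 to V3 in blue, rebamipide libraries R1 to R3 in orange, a bar at the group mean, and open triangles at the limit of 3 counts for libraries with 0 counts. Alox12b, Alox12e and Alox8 were at 0 in R3, and Alox8 ran from 0.898 to 95.9 CPM among the vehicle libraries.

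On chromosome 11, 6 of the members lie in 2 groups (positions on GRCm39, as the deposited table lists them). Aloxe3 (ENSMUSG00000020892, 69016722 to 69039941, plus strand), Alox12b (ENSMUSG00000032807, 69047815 to 69060618, plus strand) and Alox8 (ENSMUSG00000020891, 69074758 to 69088669, minus strand) follow each other. Alox12 (ENSMUSG00000000320, 70132283 to 70146179), Alox12e (ENSMUSG00000018907, 70206436 to 70213454) and Alox15 (ENSMUSG00000018924, 70234978 to 70242857) follow each other on the minus strand. No other gene of the table lay inside either stretch, and no member overlapped another gene of the table. Alox5 (ENSMUSG00000025701) lies on chromosome 6 from 116387038 to 116438139 on the minus strand, and Alox5ap (ENSMUSG00000060063) on chromosome 5 from 149201577 to 149224963 on the plus strand.

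Upstream sequence was given for 5 of the 8 members by RefSeq on the older build GRCm38.p6, whose positions differ from those above. The 250 bases before the start are shown for 3 epidermal members and for Alox5, to set genes of different cell types beside each other. Capitals mark matches, on either strand, to 5 searched motifs. The letters searched were TATAAA for the box that binds the TATA-binding protein, CCAAT for the box of that name, GGGCGG for the GC box, TGANTCA for the factor AP-1 and GCCNNNGGC for the factor AP-2, and no matches overlapped. The windows are chr11:69156822-69157071 on the plus strand for Alox12b, chr11:70322531-70322780 on the minus strand for Alox12e, chr11:69197844-69198093 on the minus strand for Alox8, and chr6:116461179-116461428 on the minus strand for Alox5.
Alox12b: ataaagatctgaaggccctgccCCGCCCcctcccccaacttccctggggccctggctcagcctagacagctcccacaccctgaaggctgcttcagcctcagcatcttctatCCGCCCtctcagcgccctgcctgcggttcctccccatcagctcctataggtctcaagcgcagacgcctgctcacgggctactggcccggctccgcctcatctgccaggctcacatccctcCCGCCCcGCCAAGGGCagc
Alox12e: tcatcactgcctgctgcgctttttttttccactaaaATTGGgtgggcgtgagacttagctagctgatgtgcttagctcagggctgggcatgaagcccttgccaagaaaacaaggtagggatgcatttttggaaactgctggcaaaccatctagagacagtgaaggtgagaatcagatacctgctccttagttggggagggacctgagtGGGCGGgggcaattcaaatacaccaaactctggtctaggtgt
Alox8: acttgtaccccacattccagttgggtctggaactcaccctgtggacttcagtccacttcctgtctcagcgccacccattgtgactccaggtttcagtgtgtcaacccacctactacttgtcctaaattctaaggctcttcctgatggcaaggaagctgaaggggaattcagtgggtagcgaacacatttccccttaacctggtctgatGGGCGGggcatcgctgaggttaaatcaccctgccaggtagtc
Alox5: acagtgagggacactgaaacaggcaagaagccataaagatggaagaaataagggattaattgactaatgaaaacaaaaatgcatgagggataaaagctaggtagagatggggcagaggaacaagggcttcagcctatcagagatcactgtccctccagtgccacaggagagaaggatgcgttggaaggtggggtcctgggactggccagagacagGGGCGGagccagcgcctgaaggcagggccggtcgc
GC box letters were found in each of the 5 windows (Alox12 included), 3 times in Alox12b, 2 times in Alox12 and once in each of the others, and they occur in 33% of 32536 such windows of the genome. The Alox12b window had a GC content of 66%, the other 4 had 49.6% to 54%, and the median of all windows was 52.4%. No match to the TATA box or AP-1 letters was found in the 5 windows, where 12.3% and 6.73% of all windows hold one. These matches are a description of letters and not of bound sites.

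Alox12e had the highest mean level per gene length in the vehicle group, with 26.4, 132 and 109.3 FPKM in V1 to V3. In V1 alone, Alox8 was above it, at 34.4 FPKM. Alox12b (15.4 ± 9.69 FPKM, SD, n = 3) and Alox8 (15.2 ± 17.5) came next among vehicle libraries and did not differ beyond their spread. Alox5ap was at 6.60 ± 3.15 FPKM, and Aloxe3, Alox15, Alox5 and Alox12 lay at 3.36 ± 1.41, 3.22 ± 2.15, 3.07 ± 1.32 and 2.42 ± 1.2 FPKM, closer together than their spread. After rebamipide the order was Alox12e (11.7 ± 11.3), Alox12b (2.90 ± 2.95), Alox5ap (2.68 ± 2.89), Alox5 (1.04 ± 1.1), Alox15 (0.758 ± 0.847), Alox12 (0.643 ± 0.268), Aloxe3 (0.487 ± 0.407) and Alox8 (0.143 ± 0.248 FPKM), and each neighbouring pair lay within its spread.

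The makeup of the 7 enzymes differed between libraries of the same group. In V2, V3, R1 and R2, Alox12e made up 65.2% to 75.4% of the summed FPKM and Alox12b 9.62% to 17.1%. In V1, Alox8 made up 48% and Alox12e 36.8%. The sum was 71.7, 175.1 and 149 FPKM in V1 to V3 and 34.5, 17.6 and 0.994 FPKM in R1 to R3. In R3, Alox12 (39.7%), Alox5 (39.5%) and Alox15 (18.9%) made up nearly all of what was left.

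**Figure D2:**
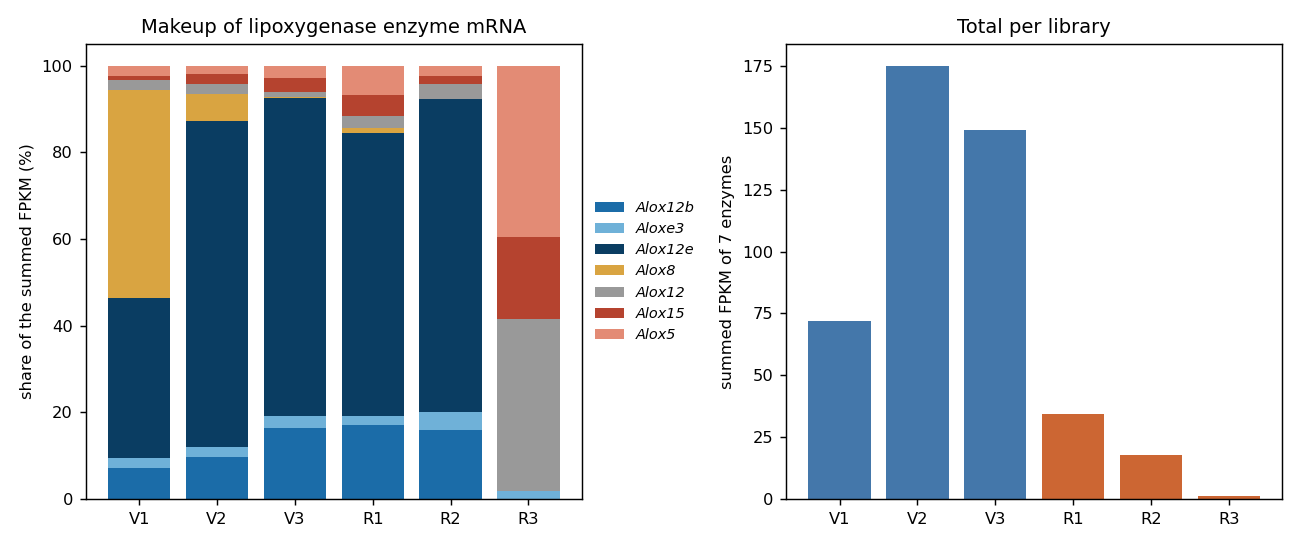
Left, share of each enzyme gene in the summed FPKM of the 7 lipoxygenases by library (V vehicle, R rebamipide, percent), and right, that sum in FPKM. Alox12e is the largest share in 4 of the 6 libraries, Alox8 in V1, and in R3 only 0.994 FPKM remain, mostly Alox12, Alox5 and Alox15.

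Alox12b, the first enzyme of the epidermal route, had 9.66, 33.2 and 48.8 CPM in V1 to V3 and 15.4, 9.08 and 0 CPM in R1 to R3. V1 was low, near R2, and the groups overlapped. The 0 counts in R3 allow a level of up to 0.114 CPM, for counting error only. The estimated difference was -1.90 ± 1.52 on the log2 scale (± standard error, 95% interval -5.58 to 1.78, adjusted p = 0.377, edgeR), and -1.31 without R3 (adjusted p = 0.25, edgeR). The two-sided exact permutation test on log2 CPM gave p = 0.2, where 3 libraries against 3 allow no p-value below 0.1. Over 21 alternatives for Alox12b the adjusted p-values ran from 0.0829 to 0.684.

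Aloxe3, the enzyme that isomerises the hydroperoxide made by Alox12b, had 8.77, 20.5 and 23.1 CPM in V1 to V3 and 4.81, 6.39 and 0.153 CPM in R1 to R3. Each rebamipide library lay below each vehicle library, with R2 and V1 the closest. The difference was estimated at -2.21 ± 1.10 (95% interval -4.87 to 0.46, adjusted p = 0.183, edgeR, exact permutation p = 0.1). Without R3 it was -1.63 ± 0.51 (adjusted p = 0.0966, edgeR), and DESeq2 called the gene on those 5 libraries (adjusted p = 0.0145, over all 21 alternatives 0.0145 to 0.333). The FPKM ratio of Alox12b to Aloxe3 was 2.90, 4.25 and 5.56 in V1 to V3 and 8.45 and 3.74 in R1 and R2. These ratios overlapped between the groups.

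Alox12e had 58.5, 302 and 255.4 CPM in V1 to V3 and 68.5, 48.2 and 0 CPM in R1 to R3. As with Alox12b, V1 was low, here below R1. The fitted log2 difference was -2.40 ± 1.76 (95% interval -6.66 to 1.86, adjusted p = 0.338, edgeR, exact permutation p = 0.2), and -1.81 ± 0.71 when R3 was left out (adjusted p = 0.151, edgeR). DESeq2 called the gene on the same 5 libraries (adjusted p = 0.0362). This was the only call among its 21 alternatives, whose adjusted p-values reached 0.617.

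Alox8 had the widest fold span of the members among the vehicle libraries. It had 95.9, 31.7 and 0.898 CPM in V1 to V3, a span of 107-fold, and 1.65, 0 and 0 CPM in R1 to R3. V3 was below R1, so the groups overlapped, and the 0 counts in R2 and R3 allow up to 0.117 and 0.114 CPM. The log2 estimate was -6.25 ± 2.25 (95% interval -11.7 to -0.79, unadjusted p = 0.031, adjusted p = 0.0939, edgeR, exact permutation p = 0.2), and its size depends on the prior count because libraries are at 0. It was -4.81 without V1 (adjusted p = 0.213) and -5.66 without R3 (adjusted p = 0.156, both edgeR). Without R1, which leaves 0 reads in the rebamipide group, edgeR gave an adjusted p of 0.073 and DESeq2 called the gene lower (adjusted p = 3.03e-05), and the fitted sizes, -13.73 and -12.52, are then set by the handling of 0 counts. These values lay within a range of 3.03e-05 to 0.305 over 21 alternatives.

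Alox12, the platelet-type enzyme, had 5.37, 12.6 and 6.01 CPM in V1 to V3 and 4.08, 3.31 and 2.14 CPM in R1 to R3, without overlap. Its standard error was the smallest of the members. The estimate was -1.33 ± 0.46 (95% interval -2.45 to -0.21, unadjusted p = 0.0273, adjusted p = 0.0863, edgeR, exact permutation p = 0.1). Alox12 was called lower in 6 of 21 alternatives (adjusted p from 0.0133 to 0.277), and without R3 its value was -1.10 (adjusted p = 0.206, edgeR). Of 8 platelet markers 4 were tested and 0 were called. The mean of the list was between -2.53 and -1.80 log2 CPM in the vehicle group and between -1.50 and -1.03 in the rebamipide group, with Gp1bb at 0 in all 6 libraries, and the part of platelets in the Alox12 values was not tested. The basal keratinocyte list (8 genes, 8 tested, 0 called by edgeR and 3 by DESeq2, median log2 fold change -2.44) had a mean of 7.85, 8.43 and 8.23 log2 CPM in V1 to V3 and 6.88, 6.15 and 0.13 in R1 to R3. Like Alox12, it was lower in each rebamipide library than in each vehicle library and lowest in R3, and the part of keratinocyte content in the Alox12 values was not tested either.

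The leukocyte members had reads in all libraries. Alox5 had 5.27, 11.2 and 14.3 CPM in V1 to V3 and 10.2, 2.26 and 2.14 CPM in R1 to R3. R1 lay among the vehicle libraries, and R2 and R3 lay below them. The estimate was -1.07 ± 0.74 (95% interval -2.86 to 0.72, adjusted p = 0.311, edgeR, exact permutation p = 0.2), and -0.71 without R3 (adjusted p = 0.553, edgeR). When R1 was left out, Alox5 was called lower by edgeR (log2 value -2.22, adjusted p = 0.0359) and by DESeq2 (adjusted p = 0.000332), and it was called in no other of its 21 alternatives (adjusted p up to 0.588).

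Alox5ap, which encodes FLAP, had 3.61, 8.10 and 11.2 CPM in V1 to V3 and 9.15, 2.73 and 1.18 CPM in R1 to R3. As for Alox5, R1 lay among the vehicle libraries, and R2 and R3 were the lowest. The estimate was -0.80 ± 0.81 (95% interval -2.76 to 1.15, adjusted p = 0.478, edgeR, exact permutation p = 0.3), and -0.35 without R3 (adjusted p = 0.768, edgeR, range over 21 alternatives 0.0113 to 0.799). When R1 was left out it was -1.96 (adjusted p = 0.0839, edgeR), and DESeq2 called Alox5ap lower (adjusted p = 0.0113). The FPKM ratio of Alox5ap to Alox5 was 1.98, 2.098 and 2.25 in V1 to V3 and 2.59, 3.49 and 1.60 in R1 to R3, with overlap.

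Alox15, the enzyme of resident macrophages and eosinophils, had 1.46, 8.22 and 9.64 CPM in V1 to V3 and 4.58, 1.17 and 0.611 CPM in R1 to R3. V1 and R1 lay between the others, and the groups overlapped. The estimate was -1.60 ± 0.97 (95% interval -3.95 to 0.75, adjusted p = 0.258, edgeR, exact permutation p = 0.2), and -1.15 without R3 (adjusted p = 0.446, edgeR, range over 21 alternatives 0.00538 to 0.496). When R1 was left out it was -2.85 (adjusted p = 0.0818, edgeR), and DESeq2 called Alox15 lower (adjusted p = 0.00538). The intervals of the 3 leukocyte members include 0 and reach down to -2.76 or lower.

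**Figure D3:**
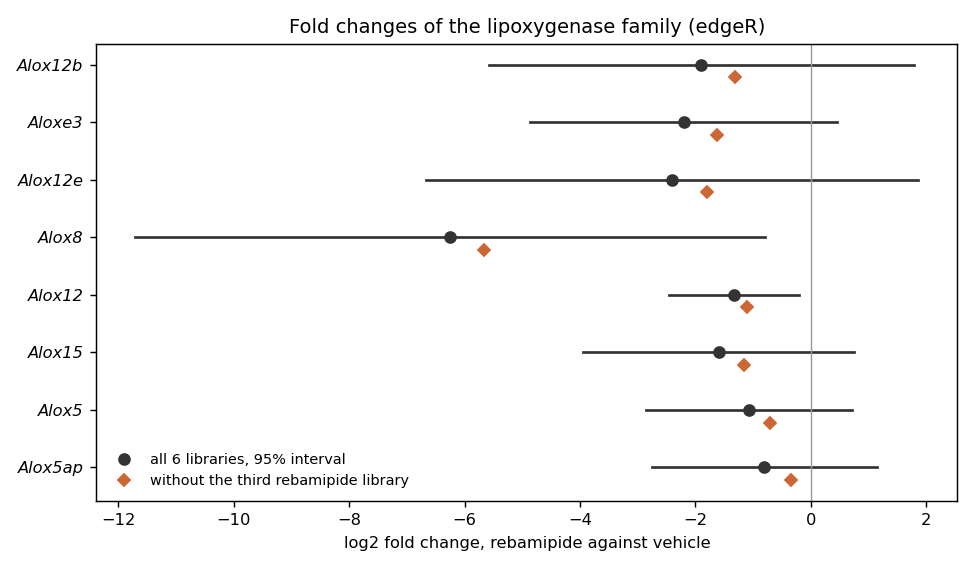
Log2 fold change of each member, rebamipide against vehicle, from edgeR (black points, with 95% intervals as lines) and the value without R3 (orange diamonds). All points lie below 0, and the intervals of Alox8 and Alox12 alone exclude 0 before adjustment for multiple testing.

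Epidermal members were then set against leukocyte members within each library. The mean log2 CPM of the 4 epidermal members was 4.72, 5.66 and 4.50 in V1 to V3 and 3.26, 1.30 and -5.33 in R1 to R3, so the groups did not overlap. That of the 3 leukocyte members was 1.61, 3.18 and 3.53 in V1 to V3 and 2.92, 0.96 and 0.23 in R1 to R3, with overlap. Epidermal minus leukocyte was 3.11, 2.48 and 0.97 in V1 to V3 and 0.35, 0.34 and -5.56 in R1 to R3. The group means differed by -3.81 on the log2 scale and by -1.85 without R3, and no test was made on this score over chosen genes.

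The separation of the groups depended on Alox8, which had 0 reads in R2 and R3. With Alox8 left out, a choice made after its values were seen, the epidermal mean was 4.09, 5.89 and 6.05 in V1 to V3 and 4.11, 3.82 and -5.03 in R1 to R3, and R1 lay above V1. Epidermal minus leukocyte was then 2.49, 2.70 and 2.51 in V1 to V3 and 1.19, 2.86 and -5.26 in R1 to R3, so that R2 lay above every vehicle library. The group means differed by -2.97 and, without R3, by -0.54, and the groups overlapped in both measures.

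The members were next set beside marker lists of the cell types in which they are known. The suprabasal keratinocyte list (10 genes, 10 tested, 0 called by edgeR or DESeq2) had a mean of 7.34, 9.01 and 9.15 log2 CPM in V1 to V3 and 6.90, 6.48 and -3.05 in R1 to R3. Relative to this list, Alox12b was at -4.07, -3.96 and -3.54 log2 units in V1 to V3 and at -2.95 and -3.30 in R1 and R2, while its own level ran from 3.18 to 5.61 log2 CPM over these libraries. Alox12e was at -1.47, -0.77 and -1.16 relative to the list in V1 to V3 and at -0.80 and -0.89 in R1 and R2, while its level ran from 5.59 to 8.24 log2 CPM. Both genes thus varied less relative to the keratinocyte list than in level over the 5 libraries with epidermal reads. Aloxe3 was at -4.21, -4.65 and -4.62 in V1 to V3 and at -4.63 and -3.81 in R1 and R2. The part of keratinocyte content in the values of these 3 genes was not tested.

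Alox8 did not keep such a distance. Relative to the suprabasal list it was at -0.76, -4.02 and -9.29 log2 units in V1 to V3 and at -6.17 and -12.7 in R1 and R2. The list of growing hair follicle keratins and trichohyalin (8 genes, 7 in the table and tested, 0 called by edgeR and 1 by DESeq2) had 11.2, 10.1 and 4.56 log2 CPM in V1 to V3 and 6.88, -4.49 and -5.13 in R1 to R3. Alox8 stood at 6.58, 4.99 and -0.13 log2 CPM in V1 to V3, at 0.73 in R1 and at -6.25, the value of 0 reads, in R2 and R3. The libraries thus had the same order by Alox8 and by this list, apart from the tie between R2 and R3. Krt25, Krt27, Krt71 and Krt73 were at 0 in R2 and R3, and Krt35 was at 0 in R3. V1, from mice that the study describes as shaved in telogen, held 230102 reads of Krt25 where V3 held 2251. The part of hair follicle content in the Alox8 values was not tested.

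The leukocyte list (8 genes, 8 tested, 0 called by edgeR and 1 by DESeq2) had a mean of 3.95, 5.15 and 5.49 log2 CPM in V1 to V3 and 5.10, 3.76 and 3.01 in R1 to R3, and none of its genes was at 0 in R3. Relative to this list Alox5ap was at -2.096, -2.13 and -2.00 log2 units in V1 to V3 and at -1.90, -2.30 and -2.75 in R1 to R3. Alox5 was at -1.55, -1.67 and -1.64 in V1 to V3 and at -1.74, -2.57 and -1.90 in R1 to R3. Over the same libraries the level of Alox5ap ran from 0.26 to 3.48 log2 CPM and that of Alox5 from 1.10 to 3.84, so both varied less relative to the list than in level. Alox15 was at -3.39, -2.11 and -2.22 in V1 to V3 and at -2.90, -3.52 and -3.69 in R1 to R3. The macrophage list lay between 5.00 and 6.22 log2 CPM in V1 to V3 and between 4.23 and 6.06 in R1 to R3, and the mast cell list between 2.71 and 3.93 and between 0.79 and 3.15. Of the neutrophil list 5 of 8 genes were tested, with 0 reads of Ly6g in 5 libraries and 2 in R2. Mmp9 of this list had 136 to 790 reads in V1 to V3 and 124 to 474 in R1 to R3. Of the eosinophil list 3 of 7 were tested, with Epx and Ear1 at 0 in all 6. Ear2 of this list had 244, 2696 and 2261 reads in V1 to V3 and 588, 217 and 32 in R1 to R3. In V1 to V3 the neutrophil list lay between -1.69 and -0.24 log2 CPM and the eosinophil list between -2.71 and -0.97. In R1 to R3 they lay between -1.35 and -1.18 and between -3.92 and -1.78. The part of leukocyte content in the values of the leukocyte members was not tested.

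**Figure D4:**
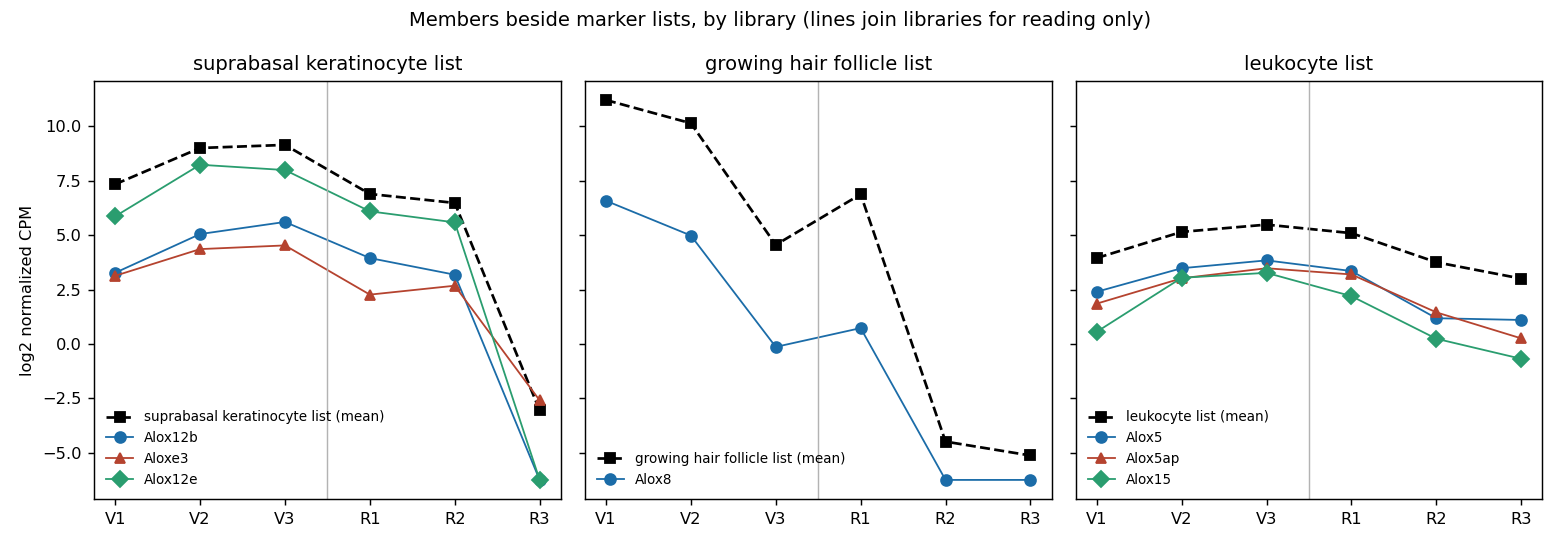
Log2 normalized CPM of members (coloured) and the mean of a marker list (black, dashed) in each library, V vehicle and R rebamipide, with lines that only join libraries for reading. Alox8 follows the order of the growing hair follicle list, including the low V3, while Alox12b and Alox12e are highest in V2 and V3, as is the suprabasal list.

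Genes with the most similar profile were sought by Pearson's r of log2 CPM over the 6 libraries among 13377 genes with a mean of at least 50 counts. For Alox12b they were Chit1 (r = 0.9998), Defb6, Slurp1, Ceacam3 and Slc5a1 (r = 0.9993). For Alox5ap they were Cd37 (r = 0.998), Cd53, Prom1, Prkab2 and Fgf13 (r = 0.996). For Alox8, added after its values were seen, they were Actbl2 (r = 0.9995), Dsg4, Krtap21-1, Krt31 and Krtap16-1 (r = 0.998). Among the members, r was 0.998 between Alox12b and Alox12e, 0.979 between Alox12b and Aloxe3 and 0.953 between Alox5 and Alox5ap, against 0.58 between Alox12b and Alox8. These correlations describe 6 points that share library depth and composition, R3 included. In R3, Alox12b and Alox12e were at -6.25 log2 CPM, the value of 0 reads. In the other libraries they were at 3.18 or more and at 5.59 or more, so R3 weighs heavily in these r values.

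The other genes of the epidermal route were followed in a list of 14 genes that make, oxidise, transport or attach the linoleate-ceramides of the barrier, or that hydrolyse their products. Of these, 2 were lower and 1 higher at an adjusted p-value under 0.05 (edgeR, against 6.51% and 14.1% of all genes), and DESeq2 called 6 lower and 1 higher (17% and 18.3% of all genes). The median log2 fold change was -2.26 (-0.17 over all genes), and 11 of 14 had every rebamipide library below every vehicle library (24% of all genes). Beside these genes, the median log2 fold change was -2.29 in the suprabasal keratinocyte list, with 5 of 10 genes lower without overlap, and -2.44 in the basal list, with 7 of 8, and Cyp4f39, Pnpla1, Abca12 and Sdr9c7 were at 0 in R3. The part of keratinocyte content in the values of the route was not tested. Ugcg, which encodes the glucosyltransferase that makes glucosylceramide, fell by 1.17 on the log2 scale (63.8 ± 12.3 against 28.3 ± 4.11 CPM, adjusted p = 0.0199, edgeR). Slc27a4, a fatty acid transport protein with acyl-CoA synthetase activity, fell by 1.12 (152.7 ± 49 against 70.3 ± 13.5 CPM, adjusted p = 0.0437, edgeR). Abhd5, an activator of lipases in both epidermis and fat, rose from 80.5 ± 14.6 to 190.8 ± 53.2 CPM (log2 value 1.25, adjusted p = 0.0306, edgeR). Of the 10 genes of the adipocyte list, edgeR called 7 higher and 0 lower (14.1% and 6.51% of all genes). Its genes Cfd (log2 value 0.34) and Lep (-0.53) overlapped between the groups. The list stood at 6.72 to 8.25 log2 CPM in the vehicle group and at 9.43 to 9.77 in the rebamipide group, and its part in the Abhd5 value was not tested.

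None of these 3 calls was made in every fit without 1 library. Slc27a4 was called in 0 of 6 such fits (adjusted p from 0.0537 to 0.139, edgeR, and from 0.000845 over all alternatives), with log2 values between -1.31 and -0.82. Abhd5 was called without V3 or R1 and Ugcg without V1, V3 or R1, and their calls were lost in the other fits (adjusted p up to 0.125 and 0.0951, edgeR). Over the 6 fits the log2 values stayed between 1.06 and 1.45 for Abhd5 and between -1.35 and -1.07 for Ugcg, and without V2 or R2 edgeR called at most 1 gene of the whole table. Over all 21 alternatives, other scalings included, they ran from 0.57 to 1.46 for Abhd5 (15 called) and from -1.79 to -1.05 for Ugcg (18 called). The mean FPKM of Abhd5 was 16.7 in the vehicle group and 25.4 in the rebamipide group. By mean FPKM over all libraries the naming rule gave Elovl4, Elovl1 and Smpd1, an order that held in neither group alone. Elovl4, an elongase of very long fatty acids, had 423.4 FPKM in the vehicle group (log2 value -2.36, adjusted p = 0.316, edgeR), and the elongase Elovl1 had 68.9 FPKM, against 57.0 and 14.2 FPKM after rebamipide (Elovl1 log2 value -1.72, adjusted p = 0.0542, edgeR, DESeq2 adjusted p = 0.00519). Smpd1, an acid sphingomyelinase, was at 39.6 and 37.8 FPKM in the groups (log2 value 0.57 on the TMM scale, adjusted p = 0.0872, edgeR).

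Sdr9c7, the dehydrogenase that acts on the products of Alox12b and Aloxe3, and Ephx3, an epoxide hydrolase, were named for their place in the route after their values were seen. Sdr9c7 was at 34.8, 55.5 and 58.5 CPM in V1 to V3 and at 14.5, 10.1 and 0 CPM in R1 to R3 (adjusted p = 0.225, edgeR). Ephx3 was at 37.8, 42.3 and 40.7 CPM in V1 to V3 and at 15.3, 8.92 and 1.26 CPM in R1 to R3 (log2 value -2.24, adjusted p = 0.0893, edgeR, DESeq2 adjusted p = 0.0116). Neither gene overlapped between the groups, and neither passed the adjusted threshold of edgeR.

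Of 16 genes of the leukotriene route beside the members, 14 were tested, 1 was lower and 0 were higher (edgeR), near the 6.51% of all genes called lower. At an unadjusted p-value under 0.05, 4 were lower and 1 was higher (18.8% and 20.9% of all genes), and DESeq2 called 4 lower and 1 higher (17% and 18.3% of all genes). The median log2 fold change was -0.92 (-0.17 over all genes). Pla2g4a, the cytosolic phospholipase that releases arachidonic acid, had 20.0, 29.4 and 18.7 CPM in V1 to V3 and 6.32, 3.51 and 0.763 CPM in R1 to R3, and fell by 2.68 on the log2 scale (standard error 0.73, adjusted p = 0.0484, edgeR). It was called without R1 or R3, and its call was lost without R2 or any 1 vehicle library (adjusted p up to 0.161, edgeR), with log2 values between -2.78 and -2.46 in those 4 fits. Beside this route, the median log2 fold change was -0.68 in the leukocyte list and -2.29 and -2.44 in the suprabasal and basal keratinocyte lists. Pla2g4a, Ptgr1, Ltb4r1 and Ltb4r2 were at their lowest in R3, at 0.763, 3.97, 0.382 and 0 CPM. The part of leukocyte and keratinocyte content in the values of this route was not tested.

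The enzymes that act on leukotriene A4 lay on both sides of 0. Lta4h, which makes leukotriene B4 and is named for its place in the route, was at 63.6 ± 7.15 and 55.1 ± 6.31 CPM (log2 value -0.21, adjusted p = 0.412, edgeR). Ltc4s, which makes leukotriene C4, had 0.861, 1.60 and 2.67 CPM in V1 to V3 and 3.69, 5.22 and 4.96 CPM in R1 to R3, without overlap and not past the adjusted threshold (log2 value 1.43, adjusted p = 0.0815, edgeR, DESeq2 adjusted p = 0.0282). Ptgr1, which inactivates leukotriene B4, was at 49.9 ± 16.2 and 13.3 ± 9.39 CPM (adjusted p = 0.0786, edgeR, DESeq2 adjusted p = 0.0116). The receptor genes Ltb4r1 and Cysltr1 were at 8.16 ± 1.97 against 1.98 ± 1.69 CPM and at 5.03 ± 2.70 against 1.27 ± 0.482 CPM (adjusted p = 0.102 and 0.0617, edgeR, 0.0207 and 0.00772, DESeq2). Mgst3 and Dpep1, the most abundant genes of the list per length, had log2 values of -0.20 and -0.37 (adjusted p = 0.638 and 0.453, edgeR).

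Of 13 genes of substrate release and of peroxide or oxylipin handling, 12 were tested, 3 were higher and 1 was lower (edgeR, against 14.1% and 6.51% of all genes), and DESeq2 called 4 higher and 2 lower (18.3% and 17% of all genes), so the lower counts are near the background. Ephx2, the soluble epoxide hydrolase, had 25.9, 38.7 and 65.7 CPM in V1 to V3 and 331, 686.6 and 722.2 CPM in R1 to R3, and rose on the log2 scale by 3.74 ± 0.51 (adjusted p = 0.0101, edgeR). Gpx4, which reduces lipid hydroperoxides such as those made by lipoxygenases, had 93.6, 142.8 and 199.5 CPM in V1 to V3 and 641.2, 1117 and 1267 CPM in R1 to R3, and rose by 2.79 ± 0.42 (adjusted p = 0.012, edgeR). Both calls were lost without V2 and without R2 (adjusted p up to 0.0747 and 0.0788, edgeR), where the log2 values were 3.61 and 3.61 for Ephx2 and 2.74 and 2.72 for Gpx4. Pla2g6, a calcium-independent phospholipase, rose by 1.13 (adjusted p = 0.0306, edgeR), and Acsl4, which activates arachidonic acid, fell by 1.35 (adjusted p = 0.0381, edgeR), each called in 2 of 6 fits without 1 library, with log2 values between 0.97 and 1.33 and between -1.60 and -1.14. Over 21 alternatives, other scalings included, the log2 values ran from 0.41 to 1.35 for Pla2g6 and from -1.99 to -1.13 for Acsl4. They ran from 3.07 to 4.19 for Ephx2 and from 2.15 to 3.12 for Gpx4. The brown adipocyte list, with 4 of 8 genes called higher and 0 lower by edgeR, stood at 1.75 to 3.18 log2 CPM in the vehicle group. In the rebamipide group it stood at 5.93 to 7.24, and its part in these values was not tested. The phospholipases Pla2g2f and Pla2g2e were at 206.6 to 432.5 against 0 to 114.9 CPM and at 5.22 to 17.4 against 0.229 to 2.34 CPM (adjusted p = 0.344 and 0.0602, edgeR, 0.385 and 0.00157, DESeq2).

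**Figure D5:**
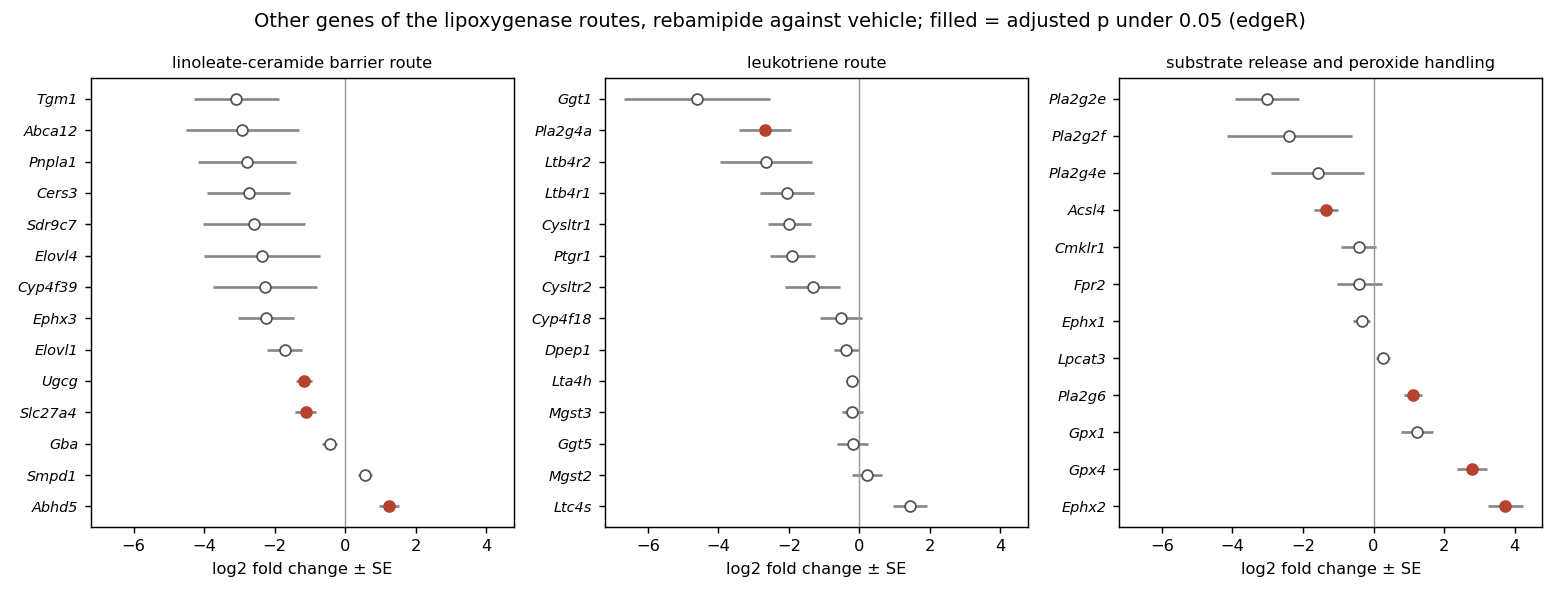
Log2 fold change with standard error (edgeR, rebamipide against vehicle) of the tested genes of 3 lists around the lipoxygenases, with filled points at an adjusted p-value under 0.05. Ugcg, Slc27a4, Pla2g4a and Acsl4 were lower and Abhd5, Pla2g6, Gpx4 and Ephx2 higher, and several genes with larger differences have wide errors.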

How the data were processed

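The authors deposited read counts as whole numbers per gene and library, without normalization. The FPKM values they deposited matched counts over gene length and library total (100% of the values within 0.1%). The submitters' processing notes name fastp 0.22.0, HISAT2 2.1.0, HTSeq 0.9.1 and GRCm39, and the study used DESeq2. Whether counting used strand is not given in the sources used here.

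The fit across 14875 genes (filterByExpr) used edgeR 4.0.16 with TMM, its quasi-likelihood test and Benjamini-Hochberg adjustment, in R 4.3.3. Single members also had a two-sided exact permutation test. Standard errors are the log2 fold change over the root of the F statistic, and log2 CPM has a prior count of 0.5. Libraries of a group were separate mice and differed beyond sampling noise (chi-square over df of 79.1 or more). A count of 0 was read as up to 3 counts. Alternatives were DESeq2 1.42.0, limma 3.58.1 (voom, and log2(FPKM + 1)), other scalings and filters, a replicate block, and each library left out. The tests were tried on simulated data.

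Members and gene lists were chosen with earlier results of these data known. The text names the members and, per route list, up to 5 genes of smallest p and the 3 of highest mean FPKM. Lta4h, Ltb4r2, Sdr9c7, Ephx3 and the genes most like Alox8 were added after their values were seen. Krt85 was not analysed here.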

Additional observations from a re-analysis of the deposited data

How the results depend on the processing

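Each of the 8 members kept a log2 fold change below 0 in all 21 alternatives, and 16 member values passed the adjusted threshold, while 152 did not. The count of members lower was 0 in the report, 1 with DESeq2, 1 when libraries were scaled by their totals, 2 with log2(FPKM + 1) and limma, 2 at the study's thresholds, and 0 to 5 without 1 library, the 5 being DESeq2 without R1. The share of all genes called lower moved with these settings, from 6.51% in the report to 17% with DESeq2, 6.94% with limma-voom, 25.2% with totals, 4.5% without a filter, 30.7% with log2(FPKM + 1), 14.5% at the study's thresholds and 27.3% with DESeq2 without R1, and was 2.49% by edgeR and 12.2% by DESeq2 without R3. For the barrier route the lower count of 2 became 6 with DESeq2, 4 with limma-voom, 4 with totals, 1 without a filter on low counts, 11 with log2(FPKM + 1), 5 at the study's thresholds, and 0 to 10 without 1 library (7 by DESeq2 without R1, and 6 by edgeR and 10 by DESeq2 without R3). Its higher count of 1 became 0 with totals (8.46% of all genes higher), 0 with log2(FPKM + 1) (9.51%), and 0 to 2 without 1 library. For the leukotriene route the lower count of 1 became 4 with DESeq2, 4 with totals, 0 without a filter, 6 with log2(FPKM + 1), 4 at the study's thresholds, and 0 to 6 without 1 library. Its higher count of 0 became 1 with DESeq2 (18.3%), 1 at the study's thresholds (14.3%), and 0 to 1 without 1 library. The cause of these shifts was not tested. The difference of epidermal against leukocyte members, -3.81, was -2.97 without Alox8, an alternative chosen after seeing the data. Without V2, edgeR called 0 of 14964 genes (4116 at an unadjusted p under 0.05, and 1419 lower and 2097 higher by DESeq2), and without R2 it called 0 lower and 1 higher (4062 unadjusted). With the replicate number as a block, 1 member (Alox8, log2 value -7.34, adjusted p = 0.0387, edgeR, 3.03e-05 to 0.305 over its alternatives) and 1 barrier gene were lower (5.75% of all genes). The numbers did not pair the libraries: same-numbered libraries correlated at -0.041 to 0.022 in their deviations from the group means, and 0 of 6 correlated best with its own number. With 3 libraries a group, the intervals of the epidermal members are wide. When R3, nearly without epidermal reads, was left out, the edgeR standard error of Alox12b went from 1.52 to 0.69. That of Aloxe3 went from 1.10 to 0.51 and that of Alox12e from 1.76 to 0.71. The standard error of Alox8 was 2.25 with R3 and 2.27 without it.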
